A study of Mus musculus with 3 samples.

Results

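Integrins and laminins are the receptors and ligands through which cells hold on to matrix. An integrin is a heterodimer of an alpha and a beta chain that links matrix outside the cell to the actin cytoskeleton inside it, and the alpha chain largely sets which ligand is bound: collagen, proteins with an RGD motif such as fibronectin and vitronectin, or laminin. A laminin is a trimer of an alpha, a beta and a gamma chain, and laminins polymerise on cell surfaces into the sheet on which collagen IV, nidogens and perlecan assemble into a basement membrane. In bone, endothelial cells (ECs) and mural cells share a basement membrane, chondrocytes sit in cartilage collagen, and leukocytes carry integrins of their own.

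The genes were taken by symbol, as all alpha and beta integrin chains and all laminin alpha, beta and gamma chains, which gave 37 of the 55422 genes in the deposited tables. They were measured in 3 droplet single-cell RNA libraries from long bones of untreated C57BL/6 mice at 3 weeks of age. Metaphyseal replicates 1 and 2 hold cells of the metaphysis of males, C57BL/6J per the study's methods, after depletion of haematopoietic cells. The *Pdgfra-GFP* library holds cells sorted for nuclear H2B-GFP under control of *Pdgfra*, a gene of many mesenchymal cells, from metaphysis and epiphysis of heterozygous males. The number of mice per library is not given in the sources used here, so the spread behind the p-values may be technical. That spread is what remains within these libraries once differences between whole libraries are fitted. It is pooled over all cell populations and is not that of the 2 populations compared alone.

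Values per library are given throughout in the order metaphyseal replicate 1, metaphyseal replicate 2, *Pdgfra-GFP* library. After cell filters the libraries kept 2389, 2011 and 11319 cells. The libraries held 25243314, 22082735 and 91747759 UMIs (unique molecular identifiers, each a captured RNA molecule). Each cell was placed in a population by its marker genes, none of them an integrin or laminin gene, and 93.9% of the 15719 cells were placed. Below, neutrophils name the gate of neutrophil precursors, B cells that of B-lineage cells, and basophils that of mast cells or basophils. The metaphyseal libraries are labelled as mesenchymal stromal cells, but metaphyseal ECs (mpECs) made up 21.1% and 20.2% of their cells and sinusoidal bone marrow ECs (bmECs) 17.6% and 16.9%. Of the markers kept out of the gates most were highest in their own gate, but *Cotl1* ranked only 6 among the gates for septoclasts, *Pdgfrb* ranked 4 for metaphyseal stromal cells, and *Lyve1*, a sinusoidal marker, was at 0 in bmECs. The *Pdgfra-GFP* library shared 9 and 10 cell barcodes with the metaphyseal libraries, which shared 0 with each other.

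Levels are given as CPM, the UMIs of a gene scaled to all UMIs of its population in that library. They are compared between populations and not between genes, since counts at the 3′ end depend on how well each transcript is captured. Sums of UMIs per population and library were tested with edgeR's quasi-likelihood test with the library as a block, and a gene was called at an adjusted p under 0.05 (Benjamini-Hochberg over 12664 genes). Of the 37 genes 31 passed the filter on low counts, and 29 of these were called in at least 1 of 8 comparisons. The share of all genes called in at least 1 comparison is not given, so the 29 are not read as a trait of these genes. In ECs against stromal cells alone, 24.4% of all genes were called higher and 26.0% lower. *Itgb7* and *Itgam* were tested and called in none. The other 6 did not pass the filter, the leukocyte chains *Itgad*, *Itgae* and *Itgax* among them. Of these, *Lama1* reached a mean of 7.45 CPM in diaphyseal stromal cells, and *Itgax* 10 UMIs (19.0 CPM) in the 83 macrophages of the *Pdgfra-GFP* library.

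**Figure D1:**
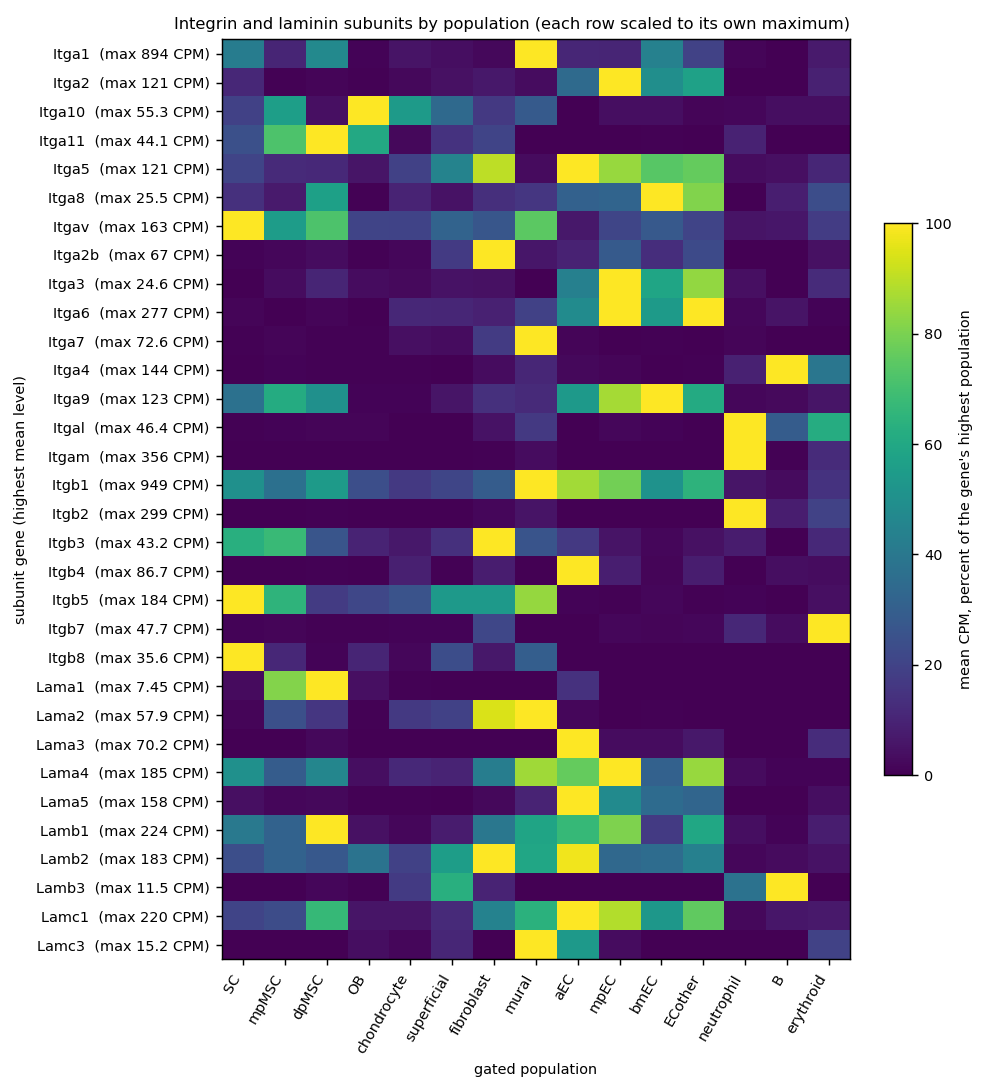
Mean CPM of 32 subunit genes (rows, by role) in 15 gated populations (columns), as a percent of the gene's own highest population, whose level stands beside the name; ECother are ECs in no EC subtype. Means are over 3 libraries for SC to chondrocyte and over the metaphyseal libraries for mural, EC and blood cells, and superficial chondrocytes and fibroblasts come from the *Pdgfra-GFP* library alone. Among these 15, *Itga1*, *Itga7* and *Itgb1* peaked in mural cells, and *Itgb4*, *Lama3* and *Lama5* in arterial ECs (aECs). *Itgav* and *Itgb5* peaked in SCs, and *Itgam* and *Itgb2* in neutrophils. Osteoclasts (301 CPM of *Itgav*), macrophages, basophils and megakaryocytes are not shown.

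The heat map of levels shows how the chains divided among cells. *Itgb1*, the beta chain that pairs with most alpha chains, was at 20 CPM or more in all 15 populations, from 26.0 CPM in B cells to 949 ± 36.8 CPM (SD, n = 2) in mural cells. *Itgav*, which binds RGD proteins with several beta chains, was at 20 CPM or more in 12 populations. The leukocyte chains were narrower among the 15. *Itgam* was at 311 and 402 CPM in the neutrophils of the metaphyseal replicates and at 108 CPM in those of the *Pdgfra-GFP* library, and its partner *Itgb2* at 277, 320 and 185 CPM. Outside the 15, the *Pdgfra-GFP* library had *Itgb2* at 152 CPM in macrophages, 150 CPM in basophils and 107 CPM in osteoclasts. There *Itgam* was at 53.1, 20.4 and 80.4 CPM in these gates. *Itga4*, which binds VCAM1 and fibronectin, was at 133, 155 and 61.0 CPM in B cells. Among the 15 populations erythroid cells came next, with a mean of 56.8 CPM in the metaphyseal libraries. The 19 basophils of the *Pdgfra-GFP* library, not among the 15, had 68.1 CPM.

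Several gates were filled by the *Pdgfra-GFP* library alone, and the fibroblast gate held only 2 and 1 cells of the metaphyseal replicates. Levels of these gates in the *Pdgfra-GFP* library are therefore descriptions with exact 95% Poisson intervals, which cover counting error only. Its 23 osteoclasts had 301 CPM of *Itgav* (242 to 371) and 83.7 CPM of *Itgb3* (54.2 to 124), the chains of the vitronectin receptor. *Itga2b*, the alpha chain of the platelet fibrinogen receptor, was at 313 CPM (185 to 494) in 7 megakaryocytes. The 19 cells of the mast cell or basophil gate had 266 CPM of *Itga2b* (189 to 363). They also had 245 CPM of *Itgb7* (172 to 339), a beta chain of lymphocyte homing receptors. The 151 cells of the fibroblast gate in the *Pdgfra-GFP* library also had 67.0 CPM of *Itga2b* (51.0 to 86.5). In them 4 megakaryocyte markers summed to 4 UMIs with *Ppbp* and *Gp9* at 0, and 5 neutrophil markers summed to 1602 CPM. Neutrophils of the metaphyseal libraries had 0 CPM of *Itga2b*. The part of megakaryocytes or neutrophils in the *Itga2b* level of the fibroblast gate was not tested.

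The neighbouring genes *Itga1* and *Itga2* encode collagen-binding chains. They lie on chromosome 13 of GRCm38 on the minus strand, at chr13:114953096-115101964 and chr13:114833081-114932100. Both were called higher in SCs than in metaphyseal stromal cells, and in opposite directions between bmECs and mpECs, so their promoters are shown (RefSeq, GRCm38.p6, chr13:115101915-115102214 and chr13:114932051-114932350, from 250 bases before to 50 after the gene start, 5′ to 3′ on the minus strand). Capitals mark a GC box.
Itga1: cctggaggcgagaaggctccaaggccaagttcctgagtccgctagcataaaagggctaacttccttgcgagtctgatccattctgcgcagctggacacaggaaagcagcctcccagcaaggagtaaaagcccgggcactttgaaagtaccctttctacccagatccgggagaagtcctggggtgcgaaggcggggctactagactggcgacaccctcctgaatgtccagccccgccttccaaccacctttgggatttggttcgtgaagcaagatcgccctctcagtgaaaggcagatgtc
Itga2: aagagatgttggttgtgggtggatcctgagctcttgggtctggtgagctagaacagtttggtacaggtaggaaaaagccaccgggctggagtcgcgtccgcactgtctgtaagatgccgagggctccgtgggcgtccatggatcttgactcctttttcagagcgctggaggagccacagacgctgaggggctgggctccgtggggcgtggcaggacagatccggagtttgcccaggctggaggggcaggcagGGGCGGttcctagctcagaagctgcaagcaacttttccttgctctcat
The GC box (GGGCGG on either strand) was in the *Itga2* window and not in that of *Itga1*, and 35.7% of all 32851 promoters held it. The AP-1 letters TGANTCA, searched on both strands like the rest, were in neither window and in 7.81% of all promoters. The RUNX letters TGTGGT, in 16.8% of all promoters, and a TATA box (TATAAA), in 13.6%, were in neither window. Of 23 members with a promoter in the table, 11 held a GC box.

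Septoclasts (SCs), the cells at the border of growth plate and metaphysis that resorb cartilage, were compared with metaphyseal mesenchymal stromal cells (mpMSCs), to ask which adhesion chains set them apart. SCs numbered 10, 11 and 189 cells and mpMSCs 47, 43 and 1238. Of the SCs, 40.0%, 27.3% and 19.6% scored within 0.05 of a gate limit. 6 members were higher in SCs (3.90% of all genes were called higher) and 2 lower (3.70% of all genes). The collagen-binding chain *Itga1* was at 589, 201 and 331 CPM in SCs and at 97.1, 83.8 and 96.8 CPM in mpMSCs. The lowest SC value lay above the highest mpMSC value, and the fitted level was 3.57-fold higher (log2 fold change 1.84, SE 0.31, adjusted p = 0.000216). High *Itga1* was not particular to SCs, whose mean was 374 CPM. Diaphyseal stromal cells had a mean of 422 CPM, bmECs 394 CPM and mural cells 894 CPM. In SCs 5 mural gate markers summed to 810, 174 and 361 CPM, with *Myh11* at 0 in all 3 sums. In mpMSCs they summed to 240, 205 and 219 CPM. The part of mural cells in the difference was not tested.

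The RGD-binding chain *Itgav* was at 175, 155 and 157 CPM in SCs against 91.4, 101 and 77.5 CPM in mpMSCs, and the groups did not overlap. The fitted level was 1.82-fold higher (log2 0.86, SE 0.20, adjusted p = 0.00493). Its partner *Itgb5* was at 184 ± 23 CPM against 119 ± 31.3 CPM (SD, n = 3), higher in each library, and did not pass (log2 0.63, adjusted p = 0.0584). *Itgb1* (478 ± 137 against 349 ± 107 CPM, adjusted p = 0.321) and *Itgb3* (27.2 ± 8.68 against 29.3 ± 12.2 CPM, adjusted p = 0.26) did not pass either. The cartilage collagen receptor chain *Itga10* was lower in SCs, at 0, 18.3 and 13.5 CPM against 32.4, 34.5 and 26.1 CPM (log2 -1.18, SE 0.37, adjusted p = 0.0494). This call held under 3 of 14 alternative settings, with an adjusted p of up to 0.397.

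Among laminin chains, *Lama4*, found in vascular and stromal basement membranes, was at 64.4, 110 and 104 CPM in SCs and 55.2, 69.0 and 36.9 CPM in mpMSCs. It was higher in SCs within each library, although the groups overlapped across libraries (2.16-fold, log2 1.11, SE 0.29, adjusted p = 0.0138), and the call held under 10 of 14 alternative settings. *Lamb1* (90.7 ± 25.8 against 70.6 ± 17.0 CPM, adjusted p = 0.606) and *Lamc1* (45.3 ± 8.4 against 51.4 ± 15.2 CPM, adjusted p = 0.687) did not pass. The study names *Itgav*, *Itgb5* and *Lama4* as highly expressed in SCs from the same cells, so the values here are not independent evidence. It set SCs against the other bone stromal populations and not against mpMSCs alone.

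The other called members rested on few molecules. *Itga2* had 21 UMIs in all SCs and 2 in all mpMSCs, a ratio of 54.1 per UMI of the populations (exact 95% interval 13.2 to 476), but none in the SCs of metaphyseal replicate 2. *Itgb8*, which binds latent TGF-beta with *Itgav*, was at 0, 91.4 and 15.5 CPM in SCs and 9.52, 0 and 2.30 CPM in mpMSCs, so the libraries differed in direction. *Lama5* was at 9.20, 0 and 10.1 CPM against 5.71, 2.46 and 0.26 CPM, again with 1 library in the opposite direction. *Lama2*, a chain of muscle laminin, had 4 UMIs in SCs and 181 in mpMSCs and was lower in SCs.

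**Figure D2:**
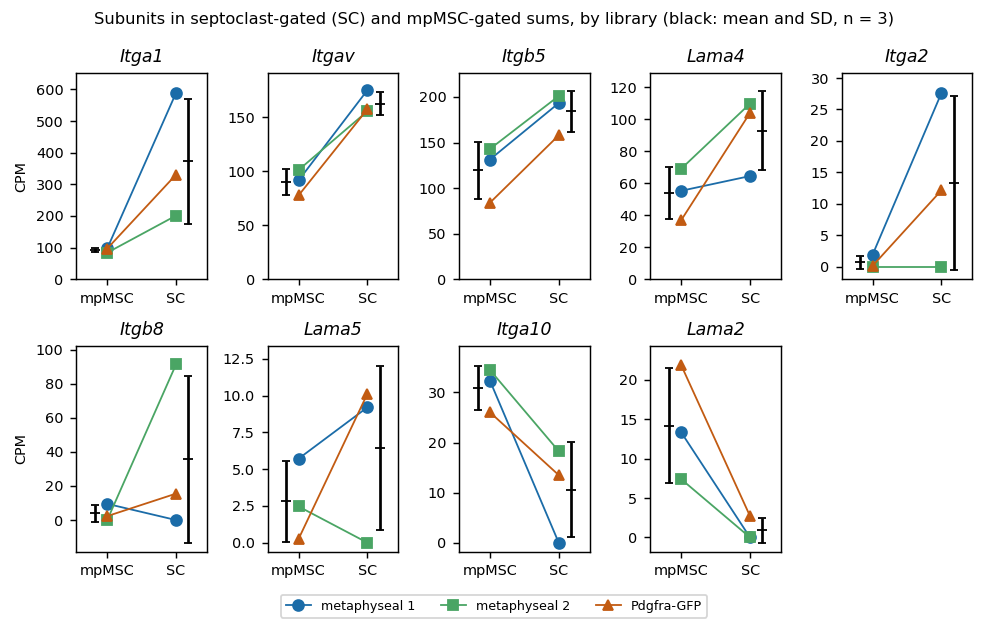
CPM of 9 subunit genes in the mpMSC and SC sums (x axis) of each library (points joined by lines), with the mean and SD over 3 libraries in black. *Itga1*, *Itgav*, *Itgb5* and *Lama4* were higher in the SCs of each library and *Itga10* and *Lama2* lower, while 1 line of *Itgb8* and 1 of *Lama5* runs the other way.

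The median log2 fold change over the 31 tested members was 0.21, and that over all genes -0.06. The calls leaned on the *Pdgfra-GFP* library: without it *Itga1* alone was called (log2 1.95), *Lama4* was at 0.34 and *Lama5* at -0.07. Without metaphyseal replicate 1, 7 members were called, and 4 without replicate 2. Leiden clusters in place of gates, which placed SCs in the *Pdgfra-GFP* library alone, called 2 members, and *Itga1* was then at log2 1.47 (adjusted p = 0.0754).

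Of 13 tested basement membrane partners, 4 were higher in SCs and 2 lower, with a median of 0.64. *Col18a1* (115 ± 89.0 against 12.4 ± 9.34 CPM, SD, n = 3) and *Col4a1* (602 ± 228 against 197 ± 75.5 CPM), both basement membrane collagens, were higher. The nidogen *Nid2* (4.87 ± 4.63 against 14.7 ± 4.61 CPM) and perlecan, *Hspg2* (54.8 ± 8.71 against 160 ± 16.4 CPM), were lower. Of 27 tested adhesion adaptors, which join integrin tails to actin, *Bcar1* was higher and 0 were lower, with 7 at an unadjusted p under 0.05. Of 16 tested other integrin ligands *Icam2* was higher and 0 were lower, with 5 at an unadjusted p under 0.05. From these lists the study also names *Vasp*, *Actn1*, *Tln1*, *Flna* and *Fn1* as highly expressed in SCs. None of these was called here against mpMSCs. Of all 12664 genes, 2322 were at an unadjusted p under 0.05 in this comparison.

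mpMSCs were next set against diaphyseal mesenchymal stromal cells (dpMSCs), the *Lepr* and *Cxcl12* expressing stroma, which numbered 754, 697 and 4294 cells. 5 members were higher in mpMSCs (13.9% of all genes) and 8 lower (14.5% of all genes). The 4 laminin chains called were lower in mpMSCs. *Lamb1* was at 81.9, 78.8 and 51.1 CPM in mpMSCs and at 252, 261 and 158 CPM in dpMSCs, 3.02-fold lower in mpMSCs (log2 -1.60, SE 0.21, adjusted p = 1.06e-06). *Lamc1*, its usual partner, was at 51.4, 66.5 and 36.1 CPM against 161, 164 and 116 CPM, 2.93-fold lower (log2 -1.55, SE 0.15, adjusted p = 8.38e-09). Neither chain's groups overlapped. *Lama4* was lower by less, at 53.7 ± 16.1 against 84.5 ± 28.4 CPM (SD, n = 3, log2 -0.63, SE 0.24, adjusted p = 0.0459), and *Lama3* had 0 UMIs in mpMSCs against 35 in dpMSCs, at least 4-fold lower against a floor of 3 UMIs over the mpMSC sums.

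The integrin chains split. *Itga1* was at 97.1, 83.8 and 96.8 CPM in mpMSCs and at 497, 487 and 281 CPM in dpMSCs, with no overlap (3.81-fold lower in mpMSCs, log2 -1.93, SE 0.28, adjusted p = 5.1e-06). *Itga10* ran the other way, at 32.4, 34.5 and 26.1 CPM against 1.80, 2.64 and 2.42 CPM (12.4-fold higher, log2 3.63, SE 0.27, adjusted p = 8.14e-11). Both are collagen-binding chains, and a further one, *Itga11*, did not pass (31.7 ± 4.57 against 44.1 ± 19.0 CPM, adjusted p = 0.68).

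*Itgb5* and *Itgb3*, both partners of *Itgav*, were higher in mpMSCs. *Itgb5* was at 131, 143 and 83.9 CPM against 37.0, 31.9 and 27.7 CPM (3.68-fold, log2 1.88, SE 0.18, adjusted p = 4.16e-09), and *Itgb3* at 38.1, 34.5 and 15.5 CPM against 14.6, 14.6 and 4.96 CPM (2.66-fold, log2 1.41, SE 0.27, adjusted p = 0.000159). *Itgav* itself did not pass (log2 -0.29, adjusted p = 0.209). *Itgb1* was lower in mpMSCs in each library (349 ± 107 against 516 ± 173 CPM, log2 -0.47, SE 0.17, adjusted p = 0.039). The other calls, *Itga4* and *Itgb8* higher and *Itga6* and *Itga8* lower, had means of at most 14.5 CPM in either population.

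Over the tested members the median was -0.42 (-0.20 with genes at 0 in a group set to their bound), and that of all genes -0.05. Among the partners 1 was higher and 8 were lower of 13, with a median of -1.45, and *Nid1* moved most (23.6 ± 4.38 against 231 ± 58.0 CPM). Of 16 ligands 5 were higher and 8 lower, with *Vcam1*, a ligand of *Itga4* and *Itga9* integrins, at 134 ± 12 CPM in mpMSCs and 2410 ± 126 CPM in dpMSCs, and fibronectin, *Fn1*, at 1140 ± 135 against 125 ± 22.2 CPM. Of 27 adaptors 2 were higher and 9 lower. Without the *Pdgfra-GFP* library 8 members were called.

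Osteoblasts (OBs), 215, 184 and 1904 cells, had 4 members higher than mpMSCs (19.0% of all genes) and 10 lower (18.1% of all genes). Here the scaling matters: plain library totals in place of TMM moved the median of all genes by -0.79 on the log2 scale and the share of calls that were higher from 51.2% to 9.74%, and put the members at 1 higher and 14 lower. Fitted fold changes below are relative to the median gene under TMM, which stood at -0.01. The collagen-binding chain *Itga1* was at 5.96, 10.4 and 6.34 CPM in OBs against 97.1, 83.8 and 96.8 CPM in mpMSCs (7.73-fold lower, log2 -2.95, SE 0.33, adjusted p = 4.12e-08). *Itga9*, a receptor chain for tenascin and osteopontin, was at 1.32, 0.52 and 1.84 CPM against 64.7, 108 and 53.6 CPM (23.3-fold lower, log2 -4.54, SE 0.34, adjusted p = 2.8e-11). In both the OB values lay far below those of mpMSCs in every library.

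*Itga10* was higher in OBs, at 59.1, 59.7 and 47.0 CPM against 32.4, 34.5 and 26.1 CPM (3.28-fold, log2 1.72, SE 0.21, adjusted p = 2.62e-07), and passed with plain totals as well (log2 0.91, adjusted p = 0.000655). Of the RGD-binding chains *Itgav* (33.3 ± 4.89 against 90.0 ± 11.8 CPM, SD, n = 3), *Itgb3* (4.33 ± 0.77 against 29.3 ± 12.2 CPM) and *Itgb5* (39.5 ± 9.03 against 119 ± 31.3 CPM) were lower. *Itgb1* was at 227 ± 73.7 against 349 ± 107 CPM and did not pass (log2 0.11, adjusted p = 0.657).

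The laminin chains *Lama4* (6.91 ± 1.84 against 53.7 ± 16.1 CPM), *Lamb1* (9.94 ± 3.61 against 70.6 ± 17.0 CPM) and *Lamc1* (12.1 ± 2.17 against 51.4 ± 15.2 CPM) were lower in OBs in each library. *Lamb2* was at 70.2, 71.2 and 66.7 CPM against 45.7, 59.1 and 67.2 CPM. It was called higher with TMM (log2 0.98, SE 0.17, adjusted p = 4.98e-05) and not with plain totals (log2 0.20, adjusted p = 0.605). The remaining calls were *Itga8* and *Lama2* lower and *Itga2* and *Lamc3* higher, each with a mean under 20 CPM in both populations. *Lamc3* had 12 UMIs against 0, and *Itga2* 27 against 2. Per UMI of the populations, without TMM scaling, *Lamc3* was at least 1.16-fold higher. On that unscaled basis *Itga2* had a ratio of 3.93 (exact 95% interval 0.987 to 34.1), so this interval is not on the scale of the calls.

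**Figure D3:**
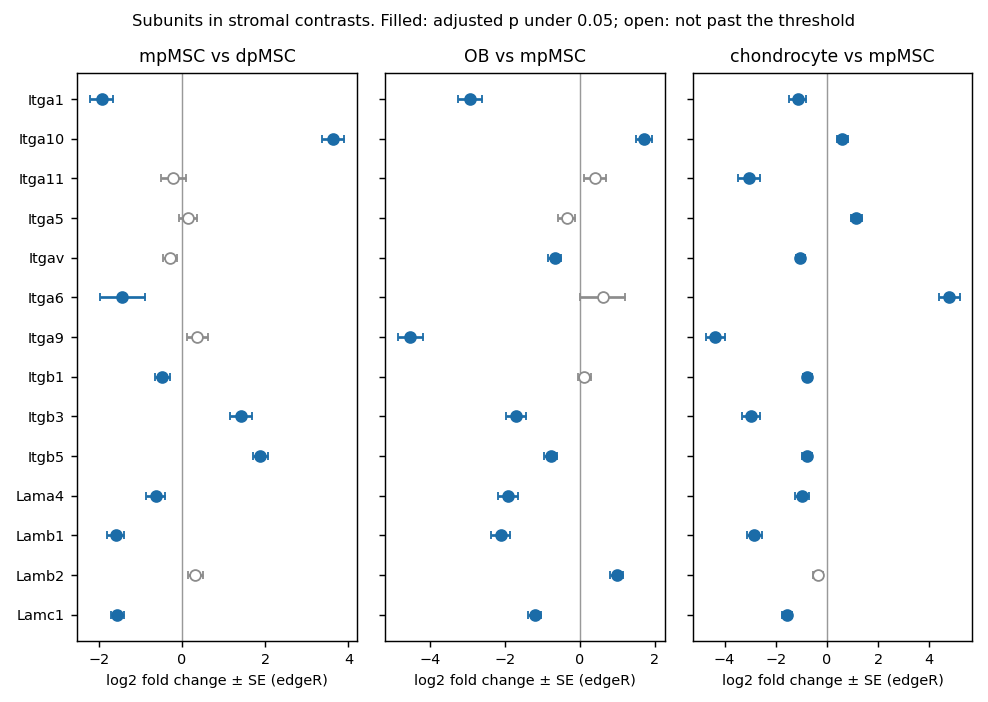
Fitted log2 fold change with its SE (x axis, edgeR) of 14 subunit genes in 3 comparisons that share the mpMSC sums, filled where the adjusted p was under 0.05. *Itga10* lies right of 0 in all 3 panels under TMM (at 0.17 with plain library totals in chondrocytes), *Itga1*, *Lama4*, *Lamb1* and *Lamc1* lie left of 0, and *Itga6* is at 4.78 in chondrocytes.

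*Itga1*, *Lama4*, *Lamb1* and *Lamc1* were lower in mpMSCs than in dpMSCs and lower in OBs than in mpMSCs, in 2 comparisons that share the mpMSC sums. The members had a median of -0.27 in OBs. Of 13 partners 0 were higher and 6 lower, with a median of -0.74, 9 at an unadjusted p under 0.05 and *Col4a1* at 13.4 ± 2.34 against 197 ± 75.5 CPM. Of all 12664 genes, 5666 were at an unadjusted p under 0.05 in OBs against mpMSCs. Of 27 adaptors 3 were higher and 13 lower, and of 16 ligands 3 and 6.

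Growth plate chondrocytes, 41, 38 and 1543 cells, had 7 members higher than mpMSCs (19.5% of all genes) and 13 lower (18.7% of all genes). Plain library totals moved the median of all genes by -0.42 and the share of higher calls from 51.1% to 24.2%, and gave 5 members higher and 14 lower. *Itga6*, a laminin-binding chain, was at 47.2, 35.4 and 11.3 CPM in chondrocytes and 0, 0 and 0.77 CPM in mpMSCs (27.5-fold higher, log2 4.78, SE 0.40, adjusted p = 1.43e-10). Its partner *Itgb4* was low but higher in each library, at 7.76 ± 1.41 against 0.30 ± 0.52 CPM (SD, n = 3). The fibronectin receptor chain *Itga5* was at 18.9, 23.6 and 27.9 CPM against 9.52, 17.2 and 16.9 CPM (2.22-fold higher, log2 1.15, SE 0.22, adjusted p = 0.000122). *Itga10* was at 23.6, 32.8 and 34.1 CPM against 32.4, 34.5 and 26.1 CPM, higher in the *Pdgfra-GFP* library alone, and its call (log2 0.60) was lost with plain totals (log2 0.17, adjusted p = 0.572).

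On the lower side, *Itga11*, a receptor chain for fibrillar collagen, was at 0, 0 and 2.89 CPM in chondrocytes and 28.6, 37.0 and 29.6 CPM in mpMSCs (8.20-fold lower, log2 -3.04, SE 0.43, adjusted p = 4.8e-06). *Itga9* (1.19 ± 1.13 against 75.6 ± 29.0 CPM), *Itgav* (32.5 ± 13.2 against 90.0 ± 11.8 CPM) and *Itgb3* (2.77 ± 2.15 against 29.3 ± 12.2 CPM) were lower in each library. So were the laminin chains *Lama4* (21.6 ± 11.0 against 53.7 ± 16.1 CPM), *Lamb1* (4.34 ± 2.45 against 70.6 ± 17.0 CPM) and *Lamc1* (12.4 ± 3.01 against 51.4 ± 15.2 CPM). *Lamb3* and *Lamc3*, chains of epithelial and other laminins, had 41 and 11 UMIs in chondrocytes and 0 in mpMSCs. Per UMI of the populations, without TMM scaling, they were at least 7.69-fold and 2.06-fold higher. Both stayed under 4 CPM in every library. *Lamb3* was at 0 in metaphyseal replicate 2, and *Lamc3* was at 0 in both metaphyseal libraries.

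*Itga1* in chondrocytes differed between the *Pdgfra-GFP* library and the metaphyseal ones. It was at 72.3 and 57.8 CPM in the metaphyseal libraries and at 15.1 CPM in the *Pdgfra-GFP* library, while mpMSCs stayed between 83.8 and 97.1 CPM (log2 -1.15, SE 0.34, adjusted p = 0.00768 over all libraries). The log2 fold change was -2.18 in the *Pdgfra-GFP* library and -0.21 in the metaphyseal libraries, and the difference of -1.96 passed its own test (edgeR interaction term, adjusted p = 0.000206), in which the 1 *Pdgfra-GFP* library is assumed to vary as the other sums do. Genes outside the members passed the same test as well, and their share is given in the closing section, so the difference is not read as particular to *Itga1*. The libraries differ in sort, in tissue and in genotype, which cannot be told apart here.

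The median of the members was -0.35 in chondrocytes. The partners leaned the other way, with 7 of 13 higher, 3 lower and a median of 0.82. *Nid2* was at 161 ± 23.1 against 14.7 ± 4.61 CPM, and *Col4a5*, a basement membrane collagen, at 5.88 ± 1.76 against 0.13 ± 0.22 CPM. Of 16 ligands 7 were higher and 4 lower, with *Thbs1* at 400 ± 144 against 25.1 ± 6.24 CPM and *Tnc* at 47.0 ± 23.4 against 3545 ± 1061 CPM. Of 27 adaptors 4 were higher and 10 lower. Without the *Pdgfra-GFP* library 10 members were called, 2 higher and 8 lower.

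ECs, taken as the mean of aECs, mpECs and bmECs, were set against stromal cells, the mean of mpMSCs and dpMSCs. EC sums came from the metaphyseal libraries, for which the levels are given, while the stromal side of the fit also held the *Pdgfra-GFP* library. Levels are averages of CPM over the gates, while the fit averages the gates on the log scale. The fold changes are therefore not ratios of the levels beside them. 13 members were higher in ECs (24.4% of all genes) and 9 lower (26.0% of all genes). Laminin-binding chains were higher: *Itga6* was at 182 and 192 CPM in ECs against 3.03 and 2.40 CPM in stromal cells (60-fold, log2 5.91, SE 0.22, adjusted p = 2.47e-18), and *Itgb4* at 32.7 and 30.9 CPM against 0.22 and 0.60 CPM (13.8-fold, log2 3.79, SE 0.55, adjusted p = 2.52e-06). *Itga2* was at 82.4 and 65.9 CPM against 2.30 and 0.84 CPM (78.0-fold, log2 6.28, SE 0.36, adjusted p = 4.67e-14), and *Itga5* at 104 and 105 CPM against 11.5 and 15.6 CPM (7.73-fold, log2 2.95, SE 0.15, adjusted p = 1.27e-15). No EC mean of these chains overlapped a stromal mean. For *Itgb4* the EC level came mostly from aECs (86.7 CPM), with mpECs at 7.23 CPM and bmECs at 1.32 CPM.

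Of the laminin chains, *Lama5* was at 94.0 and 98.9 CPM in ECs against 4.20 and 3.51 CPM (38.1-fold higher, log2 5.25, SE 0.31, adjusted p = 8.33e-14) and *Lama3* at 22.5 and 27.4 CPM against 0.90 and 0.84 CPM (23.3-fold, log2 4.54, SE 0.72, adjusted p = 1.74e-05), with *Lama3* at 70.2 CPM in aECs and 2.35 CPM in mpECs. *Lama4*, *Lamb2* and *Lamc1* were higher by log2 0.69, 0.76 and 0.92. *Lamb1* was lower in ECs by log2 -0.47, with values of 111 and 134 CPM against 167 and 170 CPM, but the populations averaged were not alike: dpMSCs (224 CPM) stood highest, mpECs (181 CPM) and aECs (150 CPM) stood above mpMSCs (70.6 CPM), and bmECs (38.4 CPM) below them. The dpMSC and mpMSC means in this list are over all 3 libraries, and the EC means over the metaphyseal libraries.

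The stromal side held *Itga11*, at 39.2 and 48.3 CPM in stromal cells with 1 UMI in ECs against 500, and the partners *Itgav* and *Itgb5*. *Itgb5* was at 1.90 and 2.33 CPM in ECs against 84.2 and 87.4 CPM (34.0-fold lower, log2 -5.09, SE 0.25, adjusted p = 7.13e-16), and *Itgav* at 28.9 and 31.1 CPM against 115 and 115 CPM (4.27-fold lower, log2 -2.09, SE 0.16, adjusted p = 5.26e-12). *Itgb3* was at 3.35 ± 0.73 against 25.5 ± 1.25 CPM (SD, n = 2) and also lower. The median of the members was -0.34 (0.00 at the bounds) and that of all genes -0.03. Of 13 partners 9 were higher and 2 lower, with a median of 1.96 and *Col18a1* at 618 ± 0.58 against 18.4 ± 3.99 CPM. Of 16 ligands 3 were higher and 10 lower, *Tnc* at 21.0 ± 17.4 against 2934 ± 240 CPM, and of 27 adaptors 12 were higher and 5 lower.

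Within the endothelium, bmECs (421 and 339 cells) had 2 members higher than mpECs (505 and 406 cells; 6.93% of all genes) and 7 lower (5.04% of all genes). *Itga1* was at 389 and 398 CPM in bmECs and 83.5 and 100 CPM in mpECs, 4.37-fold higher (log2 2.13, SE 0.33, adjusted p = 3.22e-05). *Itga2* went the other way, at 63.7 and 56.0 CPM against 131 and 110 CPM, 1.98-fold lower (log2 -0.98, SE 0.24, adjusted p = 0.00536). *Itga8*, an RGD-binding chain, was at 25.1 and 25.9 CPM against 8.22 and 8.28 CPM (3.13-fold higher, log2 1.64, SE 0.37, adjusted p = 0.00284). In each, the groups did not overlap.

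*Itga6* was lower in bmECs, at 146 and 156 CPM against 266 and 287 CPM (1.80-fold, log2 -0.85, SE 0.18, adjusted p = 0.0019). So were 3 laminin chains. *Lama4* was at 55.5 and 59.7 CPM against 177 and 193 CPM (3.15-fold lower, log2 -1.65, SE 0.25, adjusted p = 2.76e-05). *Lamb1* was at 34.9 and 41.9 CPM against 178 and 183 CPM (4.63-fold lower, log2 -2.21, SE 0.25, adjusted p = 3.04e-07), and *Lamc1* at 105 and 128 CPM against 181 and 209 CPM (1.64-fold lower, log2 -0.71, SE 0.16, adjusted p = 0.00216). *Lama5* (55.2 ± 0.94 against 76.0 ± 5.84 CPM, SD, n = 2, adjusted p = 0.321) and *Itgb1* (482 ± 5.94 against 745 ± 8.69 CPM, adjusted p = 0.0526) did not pass.

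The median of the members was -0.31 (-0.16 at the bounds), and that of all genes 0.00. Of 13 partners 2 were higher and 4 lower, with *Sdc4*, a syndecan, higher and *Col18a1* (41.0 ± 5.15 against 387 ± 26.4 CPM) and *Nid2* (49.2 ± 2.21 against 233 ± 9.72 CPM) lower. Of 16 ligands 4 were higher, *Vcam1* most (1433 ± 44.9 against 67.9 ± 7.71 CPM), and 2 lower, and of 27 adaptors 1 was higher and 3 lower. Without either metaphyseal library 3 members were called, *Itga1*, *Lama4* and *Lamb1*, where the lone sums are assumed to vary as other groups do. The few ECs of the *Pdgfra-GFP* library, left out of this test, had 332 CPM of *Itga1* in bmECs (279 to 393) and 59.3 CPM in mpECs (40.3 to 84.2).

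**Figure D4:**
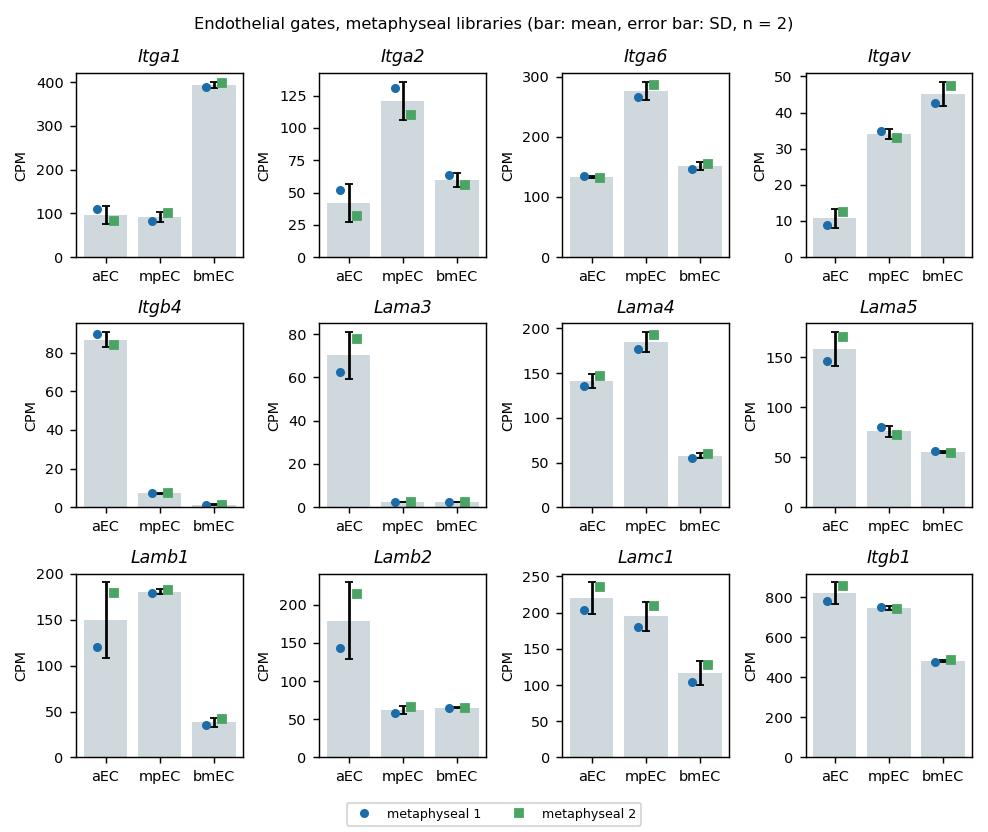
CPM of 12 subunit genes in aECs, mpECs and bmECs (x axis) of the metaphyseal libraries, with bars for the mean, error bars for the SD (n = 2) and points for the libraries. *Lama3* and *Itgb4* stand at 70.2 and 86.7 CPM in aECs and under 10 CPM in the other gates, *Itga1* at 394 CPM in bmECs, and *Itga2*, *Itga6* and *Lama4* are highest in mpECs.

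aECs (93 and 68 cells) had 5 members higher than mpECs (4.41% of all genes) and 3 lower (4.64% of all genes). The 5 were *Itgb4*, which binds laminin with *Itga6*, and 4 laminin chains. *Lama3* was at 62.6 and 77.7 CPM in aECs and 2.44 and 2.26 CPM in mpECs, 28.2-fold higher (log2 4.82, SE 0.52, adjusted p = 1.17e-06), and was not called by DESeq2 (adjusted p = 0.294). *Itgb4* was at 89.4 and 84.0 CPM against 7.31 and 7.15 CPM, 11.6-fold higher (log2 3.54, SE 0.41, adjusted p = 1.44e-06). The groups of both were far apart.

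*Lamb2* was at 143 and 214 CPM against 57.9 and 65.4 CPM (2.78-fold higher, log2 1.47, SE 0.21, adjusted p = 9.73e-06), and *Lama5* at 146 and 170 CPM against 80.1 and 71.8 CPM (2.01-fold, log2 1.01, SE 0.26, adjusted p = 0.0124). *Lamc3* had 9 UMIs in aECs and 3 in mpECs, a ratio of 15.5 (exact 95% interval 3.88 to 89.3). *Itga6* was lower, at 134 and 132 CPM against 266 and 287 CPM (2.12-fold, log2 -1.08, SE 0.21, adjusted p = 0.000543). *Itga2* (41.8 ± 14.6 against 121 ± 14.9 CPM, SD, n = 2) and *Itgav* (10.8 ± 2.59 against 34.1 ± 1.36 CPM) were lower as well, *Itgav* not with the sums of the *Pdgfra-GFP* library added (log2 -0.97).

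*Lama4*, *Lamb1* and *Lamc1*, lower in bmECs, were at 141 ± 8.07, 150 ± 40.9 and 220 ± 22.0 CPM in aECs and did not pass against mpECs (adjusted p = 0.419, 0.547 and 0.749). The median of the members was 0.01 and that of all genes -0.12. Of 13 partners 5 were higher and 1 lower, with the laminin receptor *Bcam* at 126 ± 30.2 against 16.9 ± 0.60 CPM. Of 16 ligands 3 were higher, *Fn1* at 680 ± 129 against 29.1 ± 4.09 CPM, and 2 lower, and of 27 adaptors 3 were higher and 2 lower. Without either metaphyseal library 3 members were called, *Lama3*, *Itgb4* and *Lamb2*.

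Mural cells, the pericytes and smooth muscle cells of vessels, had 8 members higher than mpMSCs (5.11% of all genes) and 1 lower (4.56% of all genes). The comparison rests on 19 mural cells in each metaphyseal library. Levels are given for these libraries, while the mpMSC side of the fit also held the *Pdgfra-GFP* library. The fitted fold changes are therefore not ratios of the levels beside them. *Itga1* was at 772 and 1015 CPM in mural cells and 97.1 and 83.8 CPM in mpMSCs, 6.84-fold higher (log2 2.77, SE 0.35, adjusted p = 2.23e-06). Its partner *Itgb1* was at 975 and 923 CPM against 396 and 424 CPM, 2.07-fold higher (log2 1.05, SE 0.21, adjusted p = 0.000907). Neither overlapped, and the 75 mural cells of the *Pdgfra-GFP* library, left out of the test, had 668 CPM of *Itga1* (592 to 751).

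Laminin-binding chains were higher too. *Itga7*, known from muscle, was at 81.3 and 63.9 CPM (19 UMIs) against 0 and 2.46 CPM (1 UMI), a ratio of 67.0 (exact 95% interval 10.7 to 2785). *Itga6* was at 65.0 and 42.6 CPM (14 UMIs) against 0 UMIs in the mpMSCs of these libraries, at least 16.5-fold higher. The mural cells of the *Pdgfra-GFP* library had less *Itga6*, at 9.48 CPM (4 UMIs, 2.58 to 24.3). *Itga6* was highest in mpECs, at a mean of 277 CPM, and the part of ECs in the mural sums was not tested. *Lama4* was at 146 and 170 CPM against 55.2 and 69.0 CPM (2.53-fold, log2 1.34, SE 0.40, adjusted p = 0.0316) and *Lamc1* at 138 and 142 CPM against 51.4 and 66.5 CPM (2.41-fold, log2 1.27, SE 0.27, adjusted p = 0.00201). *Lamc3* had 4 UMIs against 0, at least 4.70-fold higher. *Itga9* was lower, at 8.13 and 21.3 CPM (only 1 and 3 UMIs) against 64.7 and 108 CPM (6.02-fold, log2 -2.59, SE 0.78, adjusted p = 0.0316).

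**Figure D5:**
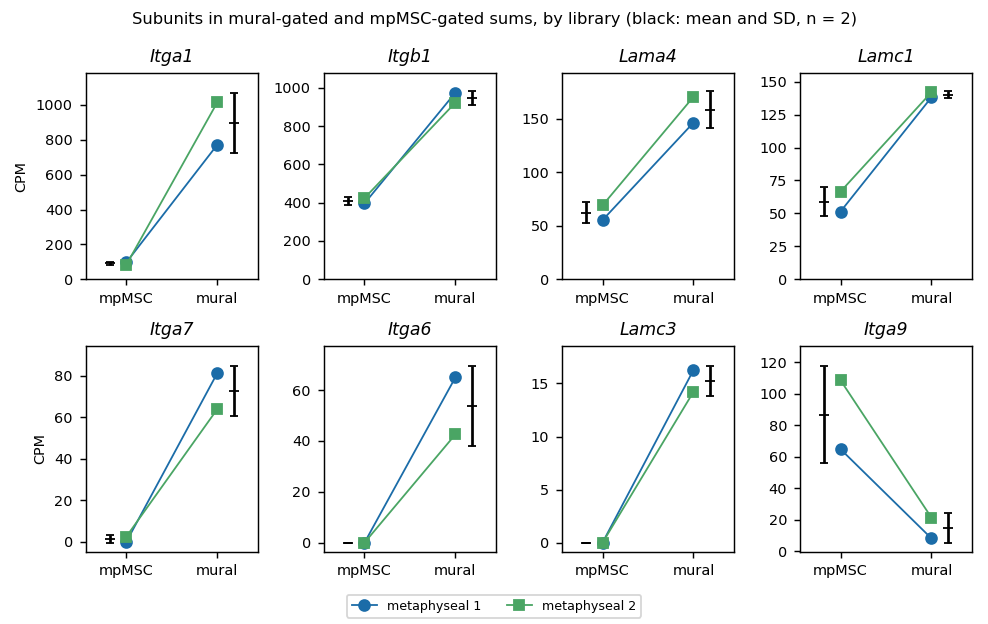
CPM of 8 subunit genes in the mpMSC and mural sums (x axis) of the metaphyseal libraries (points joined by lines), with the mean and SD (n = 2) in black. The mural sums lie above the mpMSC sums in both libraries for all genes shown but *Itga9*.

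*Itgb2*, a leukocyte chain, was called higher in mural cells on 4 UMIs, all of metaphyseal replicate 1. In that sum 5 neutrophil markers reached 5973 CPM (735 UMIs), with *Ltf* and *Elane* at 0, and in replicate 2 they reached 7.10 CPM (1 UMI). Their part in the call was not tested, and without replicate 1 the fitted change was -3.51 on the log2 scale. Members had a median of 1.05, and that of all genes -0.21. Of 13 partners 7 were higher and 2 lower, with a median of 1.71 and *Col4a1* at 4210 ± 403 against 232 ± 66.3 CPM. Of 27 adaptors 5 were higher and 0 lower, with 10 at an unadjusted p under 0.05, and of 16 ligands 5 were higher and 3 lower. Of all 12664 genes, 2564 were at an unadjusted p under 0.05 in mural cells against mpMSCs. Without metaphyseal replicate 1, 3 members were called (*Itga1*, *Itga6* and *Itga7*), and without replicate 2 the same 3 and *Itgb2*.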

How the data were processed

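The deposited tables hold raw UMI counts per gene and barcode. Per the labels and the study's methods, the authors trimmed reads with fastp 0.20, aligned and counted them with STARsolo (STAR 2.7.3a) on mm10 and deposited all barcodes; replicates were not pooled. Per the study's methods, libraries were made with the Chromium 3′ kit of 10x Genomics.

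The study's limits on genes detected (1500 for metaphyseal and 1000 for sorted GFP cells) were applied, and barcodes above 15% mitochondrial or 30% ribosomal counts were dropped. Near-empty barcodes (under 100 UMIs) held 8.51%, 9.92% and 7.24% of UMIs. Scrublet called 219 doublets (1.39%), which were kept. A cell joined a population when its marker score reached 0.2 and led the next by 0.05. Sums of at least 10 cells entered 1 edgeR 4.0.16 fit (TMM, R 4.3.3). Blocking by library rests on each library being 1 suspension, and deviations of paired sums correlated at 0.143 to 0.765 across genes. For SCs against mpMSCs the correlation was 0.143 and 0.19 in the metaphyseal libraries and 0.574 in the *Pdgfra-GFP* library. Tested on simulated SC and mpMSC counts of 12155 genes, the fit found 89.5% of 200 genes changed 4-fold, with 4 false calls. In the simulation the libraries of a population shared 1 profile, and the spread was that of the fit itself. It therefore does not measure false calls from differences between libraries, and smaller changes were not simulated.

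Members, lists and comparisons were chosen with earlier results of these data known. Full statistics go to called members with a mean of at least 20 CPM and 1 direction in all libraries, at most 10 per comparison by absolute log2 fold change. Median depth per cell was 6257, 6458 and 5354 UMIs, which limits genes of few UMIs. Gene positions are those of GRCm38. Alternatives included DESeq2 1.42.0, other scalings, gates, clusters (scanpy 1.11.5) and each library left out. The values of 1 member are not reported here.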

Additional observations from a re-analysis of the deposited data

Results flagged for a closer look

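The fold change of *Itga1* between chondrocytes and mpMSCs differed between the *Pdgfra-GFP* library and the metaphyseal libraries, by a test of the difference itself. With 1 *Pdgfra-GFP* library, the spread between libraries of that kind was not measured and was taken from the other sums. The log2 fold change in the *Pdgfra-GFP* library minus that in the metaphyseal libraries was -1.96 (edgeR interaction term, adjusted p = 0.000206), and chondrocytes had 72.3 and 57.8 CPM in the metaphyseal libraries and 15.1 CPM in the other. In that comparison 22 members and 13185 genes were tested, and 3.36% of all genes passed. *Itga1* was the 1 member called, with 8 at an unadjusted p under 0.05. In the SC, dpMSC and OB comparisons 0 members were called by edgeR, with 6, 5 and 3 at an unadjusted p under 0.05, against 0.159%, 0.531% and 0.47% of all genes called. The share of all genes at an unadjusted p under 0.05 is not given for these tests. No excess of members is therefore read from the unadjusted counts. The 1 call among 22 members is not read as an excess over the share of all genes either. The cause was not tested.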

How the results depend on the processing

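Over 103 called member results, 49 kept their direction and their call under every alternative run, and of 1420 recomputed values 1237 kept both, 178 kept the direction without the call and 5 turned. Those 5 were *Lama5* in SCs (-0.066; up to 4.44 without another library), *Itga8* in OBs (1.48; down to -3.69) and *Lama2* in chondrocytes (0.42; down to -1.89) without the *Pdgfra-GFP* library, and *Itgb2* in mural cells without metaphyseal replicate 1 (-3.51; 6.50 without replicate 2) and with clusters (-3.59), all log2 fold changes. The count of called members was 8 in SCs against mpMSCs, and became 4 with DESeq2, 3 with no replicate block and 2 with clusters. It went from 20 to 13 in chondrocytes and from 9 to 4 in bmECs with no replicate block, where pairing by library was left out. Leaving out 1 library at a time gave 1 to 7 called members for SCs, 8 to 10 for mpMSCs against dpMSCs (13 with all), 11 to 14 for OBs (14), 10 to 18 for chondrocytes (20), 18 to 20 for ECs (22), 3 to 12 for bmECs (9), 3 to 8 for aECs (8) and 3 to 8 for mural cells (9). Over all genes, SC calls went from 494 higher and 469 lower to 59 and 67 without the *Pdgfra-GFP* library, 228 and 180 without the block and 187 and 156 with clusters. With no block, calls over all genes also fell to 1499 and 1498 in OBs (from 2408 and 2297), 1051 and 1190 in mpMSCs against dpMSCs (from 1754 and 1838), 348 and 222 in bmECs (from 877 and 638) and 301 and 274 in aECs (from 559 and 587). Plain library totals, an alternative chosen after seeing the data, gave 800 higher and 7415 lower in OBs and 1482 and 4645 in chondrocytes (from 2466 and 2363). Without either metaphyseal library, calls over all genes fell to 252 and 150 or 276 and 162 in bmECs, 201 and 152 or 220 and 165 in aECs and 294 and 185 or 328 and 186 in mural cells (from 647 and 578). A minimum of 20 cells left no mural sum. The cause of these changes was not tested.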
